A study of Mus musculus with 8 samples.

Results

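The 30 genes described here encode chaperones of the endoplasmic reticulum (ER), enzymes of disulfide bond formation, parts of ER-associated degradation (ERAD) and sensors of the unfolded protein response. They were chosen by name from a table of 23847 rows, with the row of highest mean expression standing for each symbol, and all 30 were found with 1 row each. The table holds FPKM, fragments normalized to transcript length and library size, for heart ventricles of C57BL/6 mice at postnatal day 21. RNA from 4 Med1 cardiac knockout samples was compared with RNA from 4 samples of mice with floxed Med1 (Med1fl/fl), labelled WT. The Med1 protein belongs to Mediator, a large complex through which transcription factors act on RNA polymerase II. The sources used here do not give the promoter behind the deletion, the sex of the mice, whether WT mice carried a recombinase, or whether a library is 1 animal. P-values may therefore reflect no more than the spread among these samples.

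Proteins that enter the secretory pathway fold in the ER, where the Hsp70 chaperone BiP, encoded by Hspa5, binds unfolded chains and protein disulfide isomerases pair their cysteines. When unfolded proteins accumulate, the sensors IRE1 (Ern1), ATF6 and PERK start the unfolded protein response. IRE1 splices the Xbp1 mRNA, ATF6 is cut to release a transcription factor, and PERK phosphorylates the translation factor eIF2, which lowers protein synthesis and raises translation of ATF4. Chaperone, disulfide and degradation genes are the classical transcriptional targets, many through the ER stress element in their promoters. In cardiomyocytes the ER is continuous with the sarcoplasmic reticulum, which stores the calcium of contraction, and calreticulin is itself a calcium-binding chaperone.

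The promoters show which of the genes carry these elements. RefSeq promoter windows on GRCm38.p6, running from 250 bases before to 50 bases after the start site, were at hand for 26 of the 30 genes; Hyou1, Derl1, Atf6 and Manf had none. Both strands were searched for the ER stress element (CCAAT, 9 bases of any kind, then CCACG), for the second ER stress element (ATTGG, any base, then CCACG) and for the core of the unfolded protein response element (TGACGTGG). The first element was found in 9 of the 26 genes (34.6%), against 0.119% of all 32851 windows of the same length. The second was in Dnajb11 and Herpud1 (7.69%), against 0.0365% of all windows. TGACGTGG was in 0 of the 26, against 0.676% of all windows, which says only that these letters are not in these windows. The 2 ER stress elements share CCACG, and ATTGG is CCAAT read from the other strand, but no window of the 26 genes held both elements. These are shares of genes set against shares of windows, and Derl2 had 2 windows. Genes of this kind are known targets through the ER stress element, so their excess over all windows is no separate finding. A match is a description of the sequence and no evidence of binding.

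The lines that follow give each match to the first element with 10 bases on either side, 5′ to 3′ on the strand that reads CCAAT, with the fixed letters of the element in capitals; they are shown because most of the abundant chaperone genes carry it.
Hspa5, chr2:34772015-34772053, plus strand: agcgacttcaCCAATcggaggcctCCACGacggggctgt
Hsp90b1, chr10:86705628-86705666, minus strand: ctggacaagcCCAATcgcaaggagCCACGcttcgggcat
Hsp90b1, chr10:86705523-86705561, plus strand: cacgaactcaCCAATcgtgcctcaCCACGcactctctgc
Calr, chr8:84847065-84847103, plus strand: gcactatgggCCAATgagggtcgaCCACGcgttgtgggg
Canx, chr11:50325790-50325828, minus strand: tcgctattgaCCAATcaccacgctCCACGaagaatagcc
Dnajc3, chr14:118937817-118937855, plus strand: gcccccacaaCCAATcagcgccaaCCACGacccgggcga
Pdia6, chr12:17266481-17266519, plus strand: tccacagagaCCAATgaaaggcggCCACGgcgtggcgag
Syvn1, chr19:6046522-6046560, plus strand: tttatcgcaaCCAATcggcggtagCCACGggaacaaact
Derl3, chr10:75893232-75893270, minus strand: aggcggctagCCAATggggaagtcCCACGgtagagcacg
Creld2, chr15:88819510-88819548, minus strand: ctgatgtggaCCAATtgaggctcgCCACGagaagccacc

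The second element is shown in the same way, with ATTGG and CCACG in capitals, because it marks the gene that fell and a gene that rose. In Dnajb11 it lies just after the RefSeq start site, at positions 8 to 18, and in Herpud1 before it, at positions -52 to -42, counting the first transcribed base as 1 with no position 0.
Dnajb11, chr16:22857842-22857872, plus strand: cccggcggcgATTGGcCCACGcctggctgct
Herpud1, chr8:94386367-94386397, plus strand: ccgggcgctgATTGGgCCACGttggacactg

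The 250 bases before the RefSeq start site of Hspa5, Herpud1 and Dnajb9 are given in the direction of the gene, with any match in capitals. These genes stood for the 3 outcomes described next: Hspa5 was not called with all libraries, Herpud1 fell and Dnajb9 rose. The Dnajb9 stretch holds none of the 3 elements searched.
Hspa5, chr2:34771840-34772089, plus strand: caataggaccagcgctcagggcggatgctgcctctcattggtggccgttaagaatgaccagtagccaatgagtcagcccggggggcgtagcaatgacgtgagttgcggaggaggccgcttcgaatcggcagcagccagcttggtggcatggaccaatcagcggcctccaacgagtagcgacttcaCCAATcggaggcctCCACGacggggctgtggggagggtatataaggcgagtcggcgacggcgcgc
Herpud1, chr8:94386179-94386428, plus strand: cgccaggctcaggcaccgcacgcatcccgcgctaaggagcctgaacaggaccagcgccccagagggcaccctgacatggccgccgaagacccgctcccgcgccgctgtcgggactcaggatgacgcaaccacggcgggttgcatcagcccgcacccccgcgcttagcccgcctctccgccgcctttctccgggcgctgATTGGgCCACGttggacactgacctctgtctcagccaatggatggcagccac
Dnajb9, chr12:44210069-44210318, minus strand: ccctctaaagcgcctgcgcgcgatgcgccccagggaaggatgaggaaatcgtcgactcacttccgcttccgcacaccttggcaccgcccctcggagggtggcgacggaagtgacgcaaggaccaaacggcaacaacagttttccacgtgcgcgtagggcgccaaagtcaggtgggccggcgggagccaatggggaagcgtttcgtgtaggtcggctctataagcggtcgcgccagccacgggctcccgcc

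Total FPKM was 481649.7 to 502548.5 in the knockout libraries and 507458.1 to 536145.6 in the WT libraries, and the relative sequencing depth, read from low FPKM steps, ran from 0.974 to 1.102 of that of knockout 1. As a check of the labels, Med1 was at 7.80, 8.37, 7.89 and 9.15 FPKM in knockout 1 to 4 and at 15.5, 16.1, 10.6 and 16.8 FPKM in WT 1 to 4. The knockout mean was 56.3% of the WT mean (log2 change -0.74, SE 0.135, adjusted p = 0.0011 by limma). The sources used here do not name the floxed exons, so the value covers the whole gene. FPKM is relative to the other RNA of the library, and the median log2 change of all 11974 genes tested was 0.25 rather than 0. Each result is therefore also given after the libraries were rescaled by the median of ratios, which sets that median to 0. WT 3 stood apart from the other WT libraries in T cell markers, whose summed level was 29.4 FPKM there and 0.738 to 1.49 FPKM in the other 7 libraries, and it also had the lowest WT level of Med1. Knockout 4 stood apart from the other knockout libraries in the atrial genes Myl7, Myl4 and Sln and in the smooth muscle genes Tagln and Myh11. Of the other markers in these lists, Pdgfrb and Acta2 were also highest in knockout 4, Rgs5, Kcnj8 and Cnn1 were lowest there, and Nppa was neither. The main counts are therefore also given without WT 3 and without knockout 4.

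Cell type markers moved between the groups as well. All 8 cardiomyocyte markers fell, from a summed 54704 to 60879 FPKM in WT to 15247 to 23198 FPKM in the knockout. All 4 atrial markers rose, from a sum of 192 to 378 FPKM to one of 5040 to 7931 FPKM, most of it Nppa, which was at 5018 to 7829 FPKM in the knockout. Myl7 was at 61.6, 42.6, 2.50 and 726.2 FPKM in knockout 1 to 4, Myl4 at 81.7, 50.8, 19.1 and 781.3 FPKM and Sln at 18.6, 9.11, 0.429 and 188.3 FPKM, each far higher in knockout 4 than in the others. In WT, Myl7 was at most 0.680 FPKM, Myl4 at most 6.34 FPKM, and Sln was listed at 0. Of 8 fibroblast markers 6 rose, 4 of them also after rescaling, with sums of 581 to 689 FPKM in WT and 1170 to 1933 FPKM in the knockout. Pericyte and smooth muscle markers summed to 339.7 to 511.5 FPKM in WT and 762 to 1043 FPKM in the knockout; of these 7 markers 3 rose and 2 fell (2 and 2 after rescaling), and the sum followed Cnn1 (1.11 to 1.48 against 268.0 to 403.7 FPKM) and Tagln. The pericyte gene Rgs5 was at 94.3 to 122.1 FPKM in WT and 65.8 to 94.5 FPKM in the knockout. By contrast, the endothelial sums (1064 to 2094 against 1039.7 to 1751 FPKM) and macrophage sums (142.5 to 196.3 against 99.4 to 164.4 FPKM) overlapped. Most of the endothelial sum was Fabp4 (830.7 to 1793.9 against 799.9 to 1456.6 FPKM), so its overlap says little of the other endothelial markers. Of the 6 endothelial markers, 1 was called higher and 2 lower, against 0 and 3 with rescaled libraries. Of the 7 macrophage markers, 0 were called before rescaling, and 2 were called lower with rescaled libraries. No listed marker found in the table was at 0 in every library. The part of these markers in the results on ER genes was not tested, and in bulk tissue fewer cells of a type and less RNA per cell cannot be told apart.

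Most of the ER genes were higher in the knockout, and with all libraries only Herpud1 was lower past the threshold. Of the 29 that averaged 1 FPKM or more, 23 rose as deposited (limma on log2(FPKM + 1), Benjamini-Hochberg adjusted p under 0.05), against 44.9% of all genes tested. Only Herpud1 fell, against 16.4% of all genes tested. The median log2 change of the 29 was 0.66, beside 0.25 for all genes. After rescaling, 16 rose, against 26.9% of all genes, and Herpud1 alone fell, against 27.0%; the median was 0.39, beside 0. The 16 are among the 23, and quantile normalization called the same 16. The libraries that stood apart were also left out, for the rescaled values a choice made after the data were seen. Without knockout 4, 20 rose and Herpud1 fell as deposited, and after rescaling 12 of the 16 rose (not Calr, Manf, Pdia3 and Pdia5) while Hspa5 also fell. Without WT 3, 21 rose as deposited and 14 after rescaling, 13 of them among the 16 (not Calr, Manf and Pdia3) and the other being Edem1. The 30th gene, Derl3, was below the minimum, at 0.0804 ± 0.035 FPKM in the knockout and 0.0456 ± 0.0912 FPKM in WT (SD, n = 4 each). Values after ± are SDs over the 4 libraries of a group throughout.

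Every knockout library lay above every WT library for 19 of the 30 genes, against 41.7% of all genes tested, and for 1, Herpud1, every knockout library lay below, against 15.3%. Rescaled, this held for 11 genes upward, against 25.7%, and for Herpud1 downward, against 25.9%. For each of the 20 genes whose groups did not overlap as deposited, the exact two-sided permutation test gave p = 0.0286, the smallest value that 4 libraries against 4 allow. This value follows from the lack of overlap by which these genes were picked, and adds no separate evidence. The 5 tested genes with no call as deposited were Hspa5, Hsp90b1, Canx, Hyou1 and Pdia4, and another 7 (Derl2, Edem1, Ern1, Pdia6, Sec61b, Syvn1 and Xbp1) were called as deposited but not after rescaling.

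**Figure D1:**
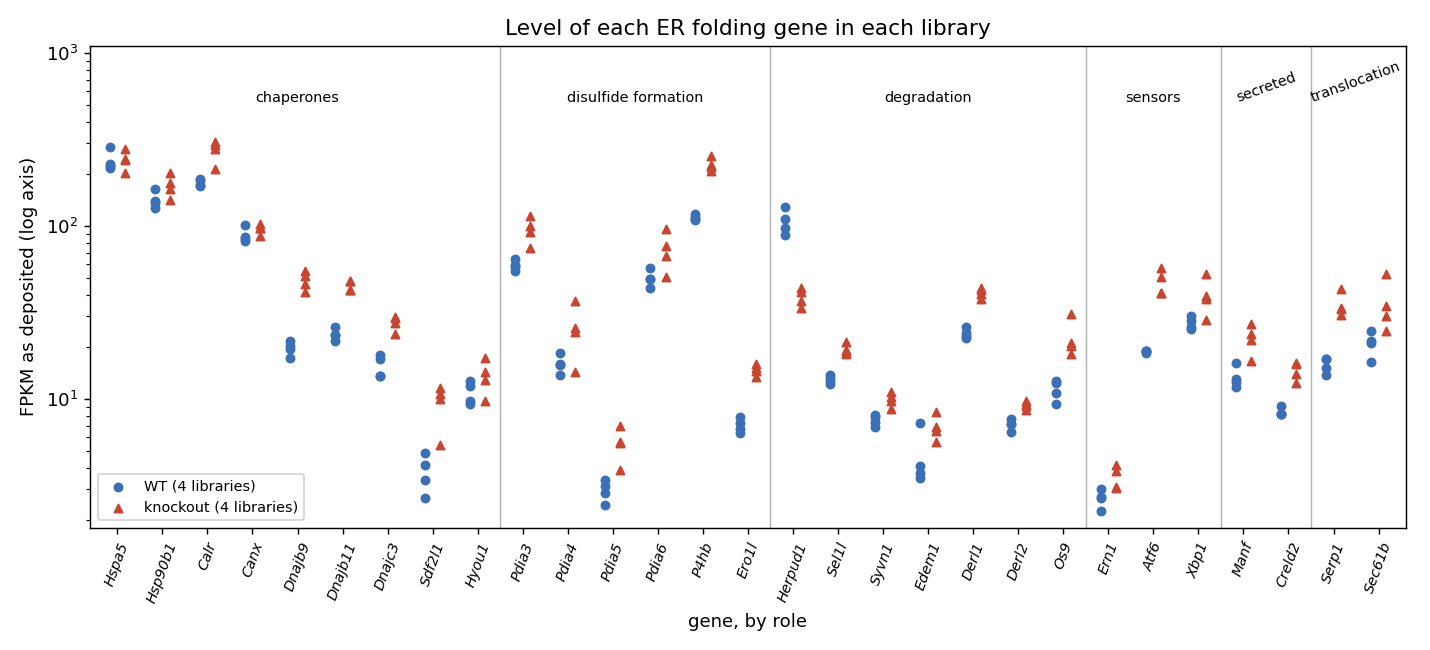
FPKM of 29 of the ER genes (logarithmic axis) in each of 4 WT libraries (circles) and 4 knockout libraries (triangles), grouped by role; Derl3, below 1 FPKM, is not drawn. The Herpud1 triangles lie below the circles, the Hspa5 symbols overlap, and triangles lie above circles for 19 genes, among them Dnajb9, P4hb and Atf6.

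Among the 9 chaperones and co-chaperones, 5 rose and 0 fell, both as deposited and after rescaling, with a median log2 change of 0.60 and 0.32. As deposited this share is close to the 44.9% of all genes called higher, and after rescaling that share is 26.9%. The rises were in the co-chaperones Dnajb9, Dnajb11, Dnajc3 and Sdf2l1 and in calreticulin. The abundant Hsp70, Hsp90 and calnexin genes, and the less abundant Hyou1, were not called with all libraries. Hspa5, the gene of BiP (chr2:34772090-34776529 on mm10), was at 202.8, 243.1, 239.9 and 280.0 FPKM in the knockout and at 285.5, 216.1, 228.9 and 221.5 FPKM in WT. The highest value of all 8 was a WT library, the lowest was a knockout library, and the groups overlapped in between. Its log2 change was 0.02 (SE 0.121, adjusted p = 0.895), or -0.26 after rescaling (adjusted p = 0.0956) and -0.33 after rescaling without knockout 4 (adjusted p = 0.0444).

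Dnajb9, also called ERdj4, a J-domain partner of BiP that is itself a strong target of the response (chr12:44205897-44210068), was at 41.7, 51.4, 55.2 and 46.3 FPKM in the knockout and at 21.5, 19.3, 20.3 and 17.2 FPKM in WT. The lowest knockout library was well above the highest WT library. The log2 change was 1.27 (SE 0.104, adjusted p = 1.11e-05), and 0.99 rescaled. Dnajb11 (ERdj3), another J-domain partner of BiP, read 48.3, 42.4, 48.1 and 42.8 FPKM against 23.5, 23.5, 26.1 and 21.5 FPKM. Its replicates were close in both groups, with no overlap, and the log2 change was 0.91 (SE 0.0821, adjusted p = 1.89e-05; 0.64 rescaled). An antisense gene, Gm30505, overlaps the Dnajb11 locus, and whether fragments were counted by strand is not stated.

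Sdf2l1, which works in a complex with ERdj3, was the least abundant chaperone gene, at 5.37, 10.7, 10.03 and 11.5 FPKM in the knockout and at 4.84, 2.68, 3.40 and 4.14 FPKM in WT. Knockout 1 lay close to the WT range and the other 3 knockout libraries far above it. The log2 change was 1.10 (SE 0.222, adjusted p = 0.00206; 0.86 rescaled). Dnajc3, a J-domain co-chaperone known as p58IPK, was at 27.5 ± 2.74 FPKM in the knockout and 15.5 ± 2.25 in WT (log2 change 0.79, 0.53 rescaled). Calr, the gene of calreticulin, was at 213.4, 278.2, 305.9 and 293.5 FPKM against 185.2, 170.8, 172.2 and 186.0 FPKM. Its groups did not overlap as deposited, though knockout 1 was far below the other 3 and fell inside the WT range after rescaling. The log2 change of Calr was 0.60 (adjusted p = 0.00141), and 0.32 rescaled (adjusted p = 0.0457), a call lost when knockout 4 (adjusted p = 0.0925) or WT 3 (adjusted p = 0.102) was also left out.

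The remaining chaperones gave no call. Hsp90b1, the Hsp90 of the ER known as GRP94, was at 171.2 ± 25.8 FPKM in the knockout and 140.9 ± 15.6 in WT (log2 change 0.27, adjusted p = 0.0777; -0.01 rescaled). Without knockout 1 it passed the threshold, at 0.36 (adjusted p = 0.0206). Canx, the gene of calnexin, the membrane-bound relative of calreticulin, was at 95.98 ± 6.54 against 88.4 ± 9.06 FPKM (log2 change 0.12, -0.16 rescaled). For Hyou1, the exchange factor of BiP known as GRP170, the means were 13.5 ± 3.14 and 10.9 ± 1.54 FPKM (log2 change 0.27, adjusted p = 0.173; 0.01 rescaled). It too was called once knockout 1 was left out, at 0.41 (adjusted p = 0.0249).

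**Figure D2:**
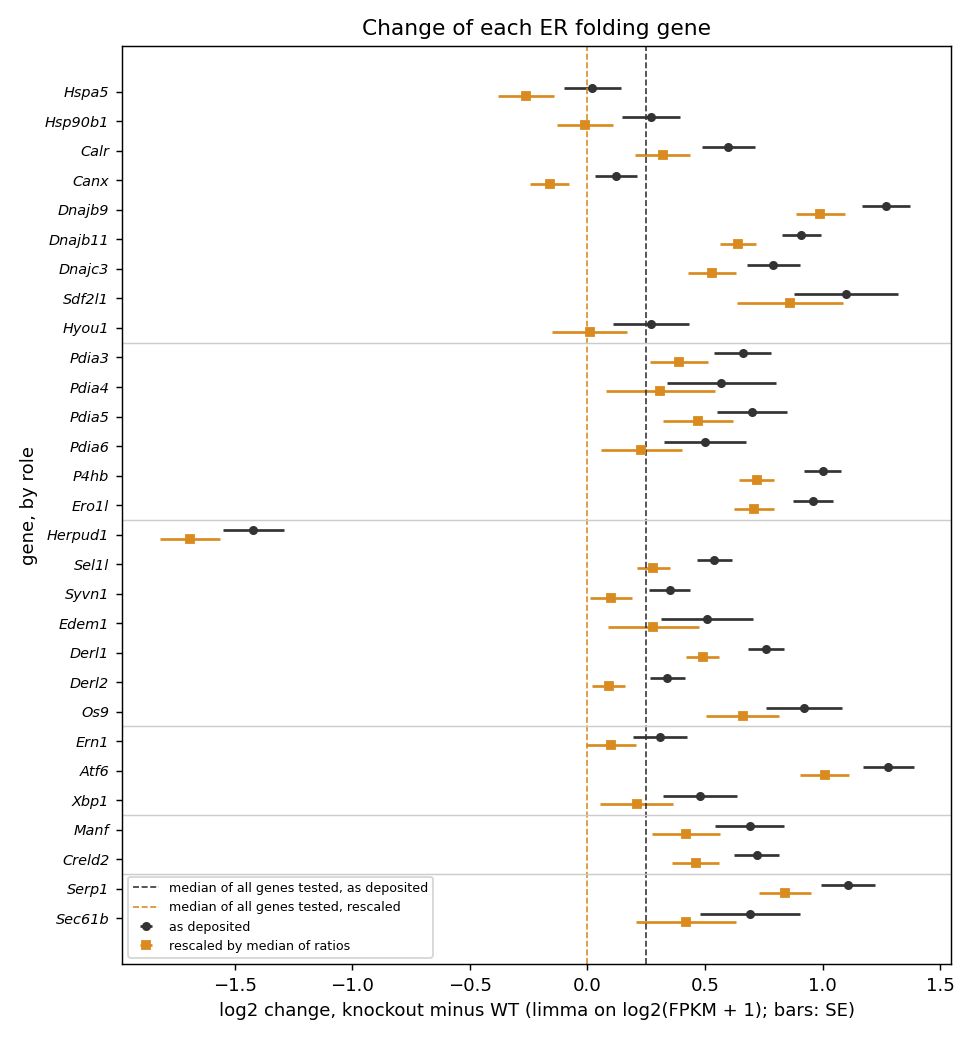
Log2 change of each of the 29 genes tested, knockout minus WT, with limma's standard error as bars, as deposited (circles) and after rescaling (squares); dashed lines mark the medians of all genes tested, 0.25 and 0. Herpud1 stands alone on the left at -1.42 (-1.69 rescaled), and Hspa5, Hsp90b1, Canx and Hyou1 lie at or near the all-gene medians or below them, while Dnajb9 and Atf6 lie farthest right.

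Of the 6 disulfide genes 5 rose as deposited, 4 of them also after rescaling, with a median log2 change of 0.68 (0.43 rescaled). The share of all genes tested that rose was 44.9% as deposited and 26.9% after rescaling. P4hb, the gene of protein disulfide isomerase, whose product is also a subunit of collagen prolyl 4-hydroxylase (chr11:120560304-120572936), was at 224.0, 207.4, 218.3 and 253.7 FPKM in the knockout and at 117.3, 108.2, 110.3 and 112.5 FPKM in WT. The WT libraries were almost level, and every knockout library lay far above them. The log2 change was 1.0 (SE 0.0782, adjusted p = 8.92e-06; 0.72 rescaled). Ero1l, the oxidase that recharges the isomerase, was at 15.1, 13.3, 14.4 and 15.8 FPKM against 6.36, 7.87, 6.68 and 7.27 FPKM. These groups also lay far apart, with a log2 change of 0.96 (SE 0.0859, adjusted p = 1.84e-05; 0.71 rescaled).

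Pdia5, a less abundant isomerase, was at 3.87, 5.52, 5.60 and 6.93 FPKM in the knockout and at 3.39, 2.43, 3.15 and 2.84 FPKM in WT. Knockout 1 was again the library nearest to WT, and the groups met only after rescaling. The log2 change was 0.70 (SE 0.149, adjusted p = 0.00284; 0.47 rescaled, a call lost without knockout 4, adjusted p = 0.0516). Pdia3, or ERp57, which acts on glycoproteins held by calreticulin and calnexin, was at 95.1 ± 16.5 against 59.1 ± 4.02 FPKM (log2 change 0.66, 0.39 rescaled, a call just lost without knockout 4, adjusted p = 0.0502, or WT 3, adjusted p = 0.0505). Pdia6 was at 50.96, 67.4, 76.7 and 96.2 FPKM in the knockout and at 57.4, 43.8, 49.2 and 49.3 FPKM in WT. Knockout 1 lay within the WT range, and the call as deposited (log2 change 0.50, adjusted p = 0.0301; 0.23 rescaled) was lost when knockout 3, knockout 4, WT 2, WT 3 or WT 4 was left out (adjusted p = 0.059 to 0.0775). Atp6v1c2 overlaps Pdia6 on the opposite strand.

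Pdia4, or ERp72, was at 14.3, 25.7, 24.5 and 36.6 FPKM in the knockout and at 18.5, 13.7, 15.8 and 15.7 FPKM in WT. Of all tested members it had the widest spread among knockout libraries, with a coefficient of variation of 36.0%, and its groups overlapped through knockout 1. It was not called with all libraries (log2 change 0.57, SE 0.232, adjusted p = 0.0567; 0.31 rescaled) and was called without knockout 1 (0.81, adjusted p = 0.00185).

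Of the 7 ERAD genes tested 6 were called higher and Herpud1 lower, and once rescaled 3 were higher and Herpud1 lower. Over all genes tested, 44.9% were called higher and 16.4% lower, or 26.9% and 27.0% after rescaling. The median log2 change of the 7 was 0.51 (0.28 rescaled). Herpud1 encodes a stress-inducible membrane protein that holds parts of the HRD1 ubiquitin ligase complex together (chr8:94386500-94395358). It was at 36.9, 44.02, 33.4 and 41.3 FPKM in the knockout and at 109.8, 97.4, 128.8 and 88.2 FPKM in WT. The groups lay far apart, and the highest knockout library had less than the lowest WT library on either scaling. The log2 change was -1.42 (SE 0.13, adjusted p = 2.07e-05) and -1.69 rescaled, so the knockout mean was 36.7% of the WT mean. WT 3 was the highest library, and without it the change was -1.32 (adjusted p = 7.34e-05). An antisense gene, Gm15890, overlaps the locus.

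The other parts of the same complex did not follow Herpud1. Sel1l, the adaptor of the ligase, was at 21.2, 18.1, 18.7 and 19.1 FPKM in the knockout and at 13.2, 13.8, 12.6 and 12.2 FPKM in WT. Both groups were tight and lay apart on either scaling, with a log2 change of 0.54 (SE 0.0751, adjusted p = 0.000228; 0.28 rescaled). Syvn1, the ligase HRD1 itself, was at 9.92 ± 0.973 against 7.53 ± 0.543 FPKM (log2 change 0.35, adjusted p = 0.00629; 0.10 rescaled, adjusted p = 0.353). Mrpl49 overlaps Syvn1 on the opposite strand. Derl1, a derlin of the membrane channel, was at 43.5, 37.6, 42.7 and 40.5 FPKM against 25.9, 22.5, 24.01 and 22.97 FPKM. Its groups stayed apart on either scaling (log2 change 0.76, SE 0.076, adjusted p = 3.37e-05; 0.49 rescaled). Derl2 was at 9.19 ± 0.405 against 7.07 ± 0.508 FPKM (log2 change 0.34, adjusted p = 0.00329; 0.09 rescaled).

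Os9, a lectin that hands misfolded glycoproteins to the complex, was at 31.1, 18.1, 21.1 and 20.1 FPKM in the knockout and at 12.3, 12.6, 10.8 and 9.30 FPKM in WT. Knockout 1 was the highest here, where it was lowest for Pdia3, Pdia4, Pdia5 and Pdia6, and all knockout libraries were above WT (log2 change 0.92, SE 0.162, adjusted p = 0.000908; 0.66 rescaled). Edem1, which steers glycoproteins to degradation, was at 5.61, 6.51, 6.91 and 8.37 FPKM in the knockout and at 4.08, 3.71, 7.28 and 3.48 FPKM in WT. WT 3, the library with T cell transcripts, was far above the other 3 WT libraries and within the knockout range. The log2 change was 0.51 (SE 0.195, adjusted p = 0.0446; 0.28 rescaled, adjusted p = 0.255), and 0.71 without WT 3 (adjusted p = 0.00176). Leaving out knockout 2, 3 or 4 or WT 1, 2 or 4 instead ended the call (adjusted p = 0.0687 to 0.117).

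The sensor class held Ern1, Atf6 and Xbp1, which is not itself a sensor. The sensor PERK (Eif2ak3) was listed with the rest of the pathway and rose on either scaling (log2 change 0.66, 0.44 rescaled). All 3 genes of the class rose as deposited, and of them Atf6 alone after rescaling, with a median log2 change of 0.48 (0.21 rescaled). As deposited 44.9% of all genes tested rose, and after rescaling the share of this class was near the 26.9% of all genes. Atf6, the membrane-bound precursor of a transcription factor (chr1:170704457-170867771), was at 56.9, 41.2, 50.8 and 41.2 FPKM in the knockout and at 18.8, 18.97, 18.3 and 18.9 FPKM in WT. The WT libraries were nearly identical, and all knockout libraries lay far above them. Its rise was the largest of the 29, with a log2 change of 1.28 (SE 0.108, adjusted p = 1.32e-05; 1.01 rescaled). Xbp1, whose mRNA IRE1 splices, was at 28.7, 39.3, 37.7 and 52.5 FPKM in the knockout and at 28.3, 25.5, 30.02 and 26.1 FPKM in WT. Knockout 1 lay within the WT range and knockout 4 far above it. The log2 change of Xbp1 was 0.48 (SE 0.157, adjusted p = 0.0237; 0.21 rescaled, adjusted p = 0.286), and the call was lost without WT 2 (adjusted p = 0.0589) or without WT 4 (adjusted p = 0.0575). FPKM per gene does not separate spliced from unspliced Xbp1.

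Ern1, the gene of IRE1, was the least abundant of the 29, at 3.83, 3.06, 3.09 and 4.14 FPKM in the knockout and at 3.02, 2.69, 2.67 and 2.24 FPKM in WT. The knockout libraries lay only just above the WT libraries and met them after rescaling. Its log2 change was 0.31 (SE 0.114, adjusted p = 0.0408; 0.10 rescaled, adjusted p = 0.474). The call was lost when knockout 1, knockout 4, WT 2, WT 3 or WT 4 was left out (adjusted p = 0.0707 to 0.11).

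Manf and Creld2 encode ER stress proteins that can be secreted, and both rose on either scaling. Of all genes tested, 44.9% rose as deposited and 26.9% after rescaling. Creld2 was at 12.3, 16.1, 13.9 and 15.9 FPKM in the knockout and at 9.12, 8.18, 8.19 and 8.13 FPKM in WT. WT 1 stood above 3 nearly equal WT libraries and still below every knockout library (log2 change 0.72, SE 0.0954, adjusted p = 0.000174; 0.46 rescaled). Manf was at 16.6, 23.6, 21.97 and 26.97 FPKM against 16.1, 12.5, 13.1 and 11.7 FPKM. Knockout 1 was barely above WT 1, and the groups met after rescaling (log2 change 0.69, SE 0.147, adjusted p = 0.00285; 0.42 rescaled, a call lost without knockout 4, adjusted p = 0.0806, or WT 3, adjusted p = 0.0721). Rbm15b overlaps Manf on the same strand.

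Serp1 and Sec61b belong to the channel through which chains enter the ER. Serp1, a small protein also called RAMP4 that binds the channel under stress, was at 30.6, 33.2, 33.7 and 43.2 FPKM in the knockout and at 16.9, 16.9, 13.8 and 15.1 FPKM in WT. The groups lay far apart (log2 change 1.11, SE 0.115, adjusted p = 3.97e-05; 0.84 rescaled), though Eif2a overlaps Serp1 on the opposite strand. Sec61b, a subunit of the channel, was at 24.6, 30.2, 34.4 and 52.8 FPKM against 21.6, 16.4, 20.96 and 24.6 FPKM. Knockout 4 was far above the other knockout libraries, and knockout 1 equalled the highest WT library to the digits given. Its log2 change was 0.69 (SE 0.213, adjusted p = 0.0181; 0.42 rescaled, adjusted p = 0.122), and 0.59 without WT 2 (adjusted p = 0.0513).

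In level, the list was led by few genes. The 30 genes summed to 1507, 1655, 1751 and 1931 FPKM in knockout 1 to 4 and to 1378, 1169, 1256 and 1185 FPKM in WT 1 to 4, so every knockout library was above every WT library. By mean FPKM, a value per length, Hspa5 ranked 1 in WT and 2 in the knockout, where Calr ranked 1. P4hb moved from rank 4 to 3, Atf6 from 14 to 9, Dnajb9 from 13 to 8 and Herpud1 from 5 to 13. The ERAD genes summed to 147.9 ± 6.60 FPKM in the knockout and 173.4 ± 21.2 in WT, lower in the mean only through Herpud1, since the other tested genes of the class all had higher means. The sensor class, Xbp1 included, summed to 90.6 ± 5.90 against 48.9 ± 1.98 FPKM and the disulfide genes to 439.2 ± 60.6 against 247.0 ± 15.1 FPKM.

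Ratios of a pair of genes within 1 library do not depend on how libraries are scaled. Of 16 pairs, chosen after values were seen and therefore given without a test, the ratio was higher in every knockout library than in any WT library for 9, lower for 3 and overlapping for 4. Most of the pairs have Hspa5 as the lower gene of the ratio, so they are not independent of each other. The same share over other pairs of genes was not computed, so these counts are a description only. P4hb over Hspa5 was 1.10, 0.853, 0.910 and 0.906 in the knockout and 0.411, 0.50, 0.482 and 0.508 in WT. The isomerase mRNA was thus near the level of the BiP mRNA in the knockout libraries and well under it in WT. Dnajb9 over Hspa5 averaged 0.203 ± 0.0272 against 0.0828 ± 0.00739, and Atf6 over Ern1 averaged 13.7 ± 2.76 against 7.14 ± 0.931. Herpud1 over Syvn1 averaged 3.93 ± 0.402 against 14.03 ± 1.63, and Herpud1 over Hspa5 0.162 ± 0.0223 against 0.449 ± 0.0808. By contrast, Ero1l over P4hb, the oxidase over its main client, was 0.0649 ± 0.00215 against 0.0631 ± 0.00774 and overlapped, as did Canx over Hspa5 (0.404 ± 0.0721 against 0.372 ± 0.0109).

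**Figure D3:**
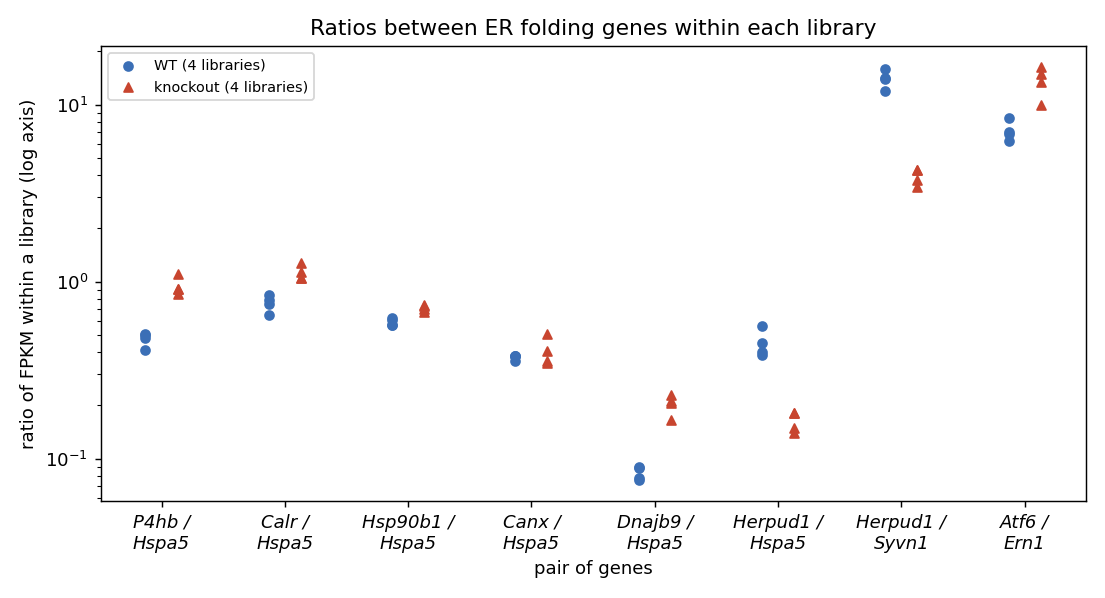
Ratio of FPKM within each library (logarithmic axis) for 8 of the 16 pairs, with WT libraries as circles and knockout libraries as triangles. The knockout symbols lie above WT for P4hb, Calr, Hsp90b1 and Dnajb9 over Hspa5 and for Atf6 over Ern1, below WT for Herpud1 over Hspa5 or Syvn1, and share a range for Canx over Hspa5.

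The knockout libraries did not share 1 profile of these genes. Knockout 1 had the lowest knockout value for 17 of the 29 tested genes, where it was lowest for 27.4% of all genes tested. Knockout 4 had the highest for 18 of the 29, where it was highest for 27.8% of all genes. Knockout 4 over knockout 1 ranged from 0.646 for Os9 to 2.55 for Pdia4, with a median of 1.30, beside 0.986 over all genes. The 9 genes above 1.5 (31.0%, beside 11.8% of all genes) were Pdia4, Sec61b, Sdf2l1, Pdia6, Xbp1, Pdia5, Hyou1, Manf and Pdia3, 4 of them isomerases. Canx, Derl1, Sel1l, Dnajb11, Atf6 and Os9 were instead highest in knockout 1. This order was seen in the data and has no test.

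In WT the spread was smaller, with WT 1 the highest for 18 of the 29 genes (29.1% of all genes). The median coefficient of variation of the 29 genes was 15.1% in the knockout and 10.3% in WT, close to the 13.8% and 10.03% of all genes. Among cell type markers, the fibroblast sum was 1678, 1170, 1596 and 1933 FPKM and the cardiomyocyte sum 15247, 23198, 20792 and 16633 FPKM in knockout 1 to 4, so the first was highest in knockout 4 and the second lowest in knockout 1. The plasma and B cell sum was 7.68, 7.78, 7.48 and 12.2 FPKM, highest in knockout 4 through Sdc1 (4.55, 3.94, 4.39 and 9.10 FPKM). The immunoglobulin joining chain Igj, a defining plasma cell gene, was at 0.181 FPKM in knockout 4, the lowest of the 4 (0.360, 0.585 and 0.540 in the others). Myl7, Myl4, Sln, Tagln (96.3, 100.6, 98.9 and 333.1 FPKM) and Myh11 (13.9, 10.6, 11.96 and 32.2 FPKM) were highest in knockout 4, as 18 of the ER genes were. Pdgfrb and Acta2, from the same lists, were also highest there, but Rgs5, Kcnj8 and Cnn1 were lowest in knockout 4 and Nppa was neither. The part of these markers in the spread was not tested.

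**Figure D4:**
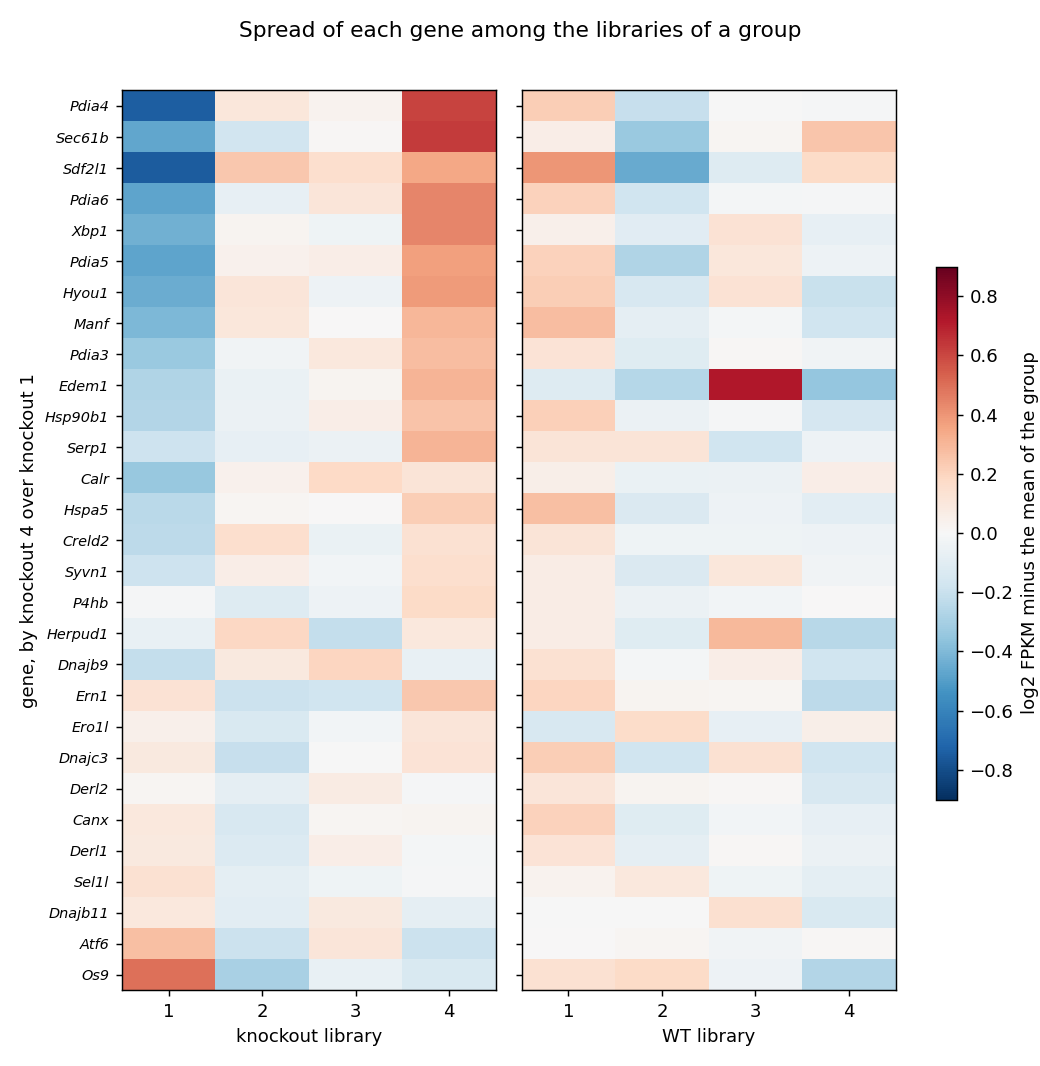
Log2 FPKM of each of the 29 genes minus the mean of its group, in each knockout library (left) and WT library (right), with genes ordered by knockout 4 over knockout 1. The top rows run from low in knockout 1 to high in knockout 4, the bottom rows (Atf6, Os9) the other way, and the single dark cell on the right is Edem1 in WT 3, at 7.28 FPKM.

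Genes with the first ER stress element were not among those with the largest changes. Among tested genes with a window, the 8 with the first element had log2 changes of 0.02 to 0.79, with a median of 0.42 (0.16 rescaled). The 15 with none of the 3 elements had changes of 0.31 to 1.27, with a median of 0.69 (0.42 rescaled). Mean WT levels differed too, with a median of 69.2 FPKM for the 8 and 12.9 FPKM for the 15. The split was made after values were seen and was not tested. The 2 genes with the second element, Dnajb11 and Herpud1, had log2 changes of opposite sign, 0.91 and -1.42.

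The authors' deposited table of their own comparison holds pooled FPKM per group, scaled differently from the libraries: the median log2 change of the 12539 genes tested there was 0.01. At a q-value under 0.05, 17 of the 29 genes tested there were higher, against 23.1% of all genes in the authors' deposited table, and Herpud1 was lower, against 22.8%. Of the 16 genes that rose after rescaling, 15 were significant in the authors' deposited table, and Sel1l was not (q = 0.0651). Pdia4 (q = 0.0206) and Sec61b (q = 0.0479) were significant in the authors' deposited table but not called after rescaling; Sec61b was called as deposited. For Hspa5 the authors' deposited table gives 306.4 FPKM in WT and 255.7 FPKM in the knockout, a log2 change of -0.26 (q = 0.155). Herpud1 is at 136.2 and 41.2 FPKM in the authors' deposited table, a log2 change of -1.73 (q = 0.000211). That table joins Serp1, Pdia6 and Syvn1 with longer loci.

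In the rest of the pathway, given here from 7 lists that hold none of the 30 genes, rises outnumbered falls, as they did over all genes as deposited (44.9% higher and 16.4% lower) but not after rescaling (26.9% and 27.0%). On the PERK arm with its death genes, 8 of 12 tested genes rose and 2 fell, on either scaling, so falls were about as frequent as over all genes as deposited. Ppp1r15a, the phosphatase subunit GADD34 that restores eIF2 activity, was at 48.4, 58.2, 52.8 and 43.2 FPKM in the knockout and at 11.3, 10.6, 10.3 and 7.53 FPKM in WT. It lay far above WT in every knockout library (log2 change 2.24, SE 0.133, adjusted p = 2.09e-06; 1.98 rescaled). Casp12, an ER-linked caspase, changed by 0.99 (0.77 rescaled), and Atf4 by 0.85 (0.58 rescaled). Chac1, a glutathione-degrading enzyme and a known ATF4 target, fell instead, at 1.8 ± 0.776 against 5.29 ± 1.95 FPKM (log2 change -1.17, -1.37 rescaled), as did the death gene Bcl2l11 (-0.51, -0.73 rescaled). PERK itself, Eif2ak3, rose by 0.66 on the log2 scale (0.44 rescaled) and the ATF4 target Ddit3, or CHOP, by 0.64 (0.37 rescaled).

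Among 11 other stress transducers there were 9 rises and 1 fall, or 7 and 2 once rescaled. Creb3, a membrane-bound transcription factor related in design to ATF6, was at 90.8, 56.5, 85.6 and 66.4 FPKM in the knockout and at 19.3, 19.2, 17.7 and 15.4 FPKM in WT. Its libraries lay far apart by group (log2 change 1.98, 1.71 rescaled). Wfs1, the ER membrane protein wolframin, changed by 1.64 (1.37 rescaled), Creb3l2, a relative of Creb3, by 1.37 (1.12 rescaled), and Map3k5, the kinase ASK1, by -0.60 (-0.85 rescaled).

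Of 20 other chaperones and co-chaperones tested, 15 rose and 1 fell, or 12 and 2 after rescaling. The largest rises were in prolyl isomerases: Fkbp11 (log2 change 1.41, 1.21 rescaled), Fkbp10, a collagen chaperone (1.06, 0.79 rescaled), and Fkbp14 (0.92, 0.66 rescaled). The other prolyl isomerases of the list differed. Fkbp9 (0.83, 0.56 rescaled) and Ppib (0.59, 0.31 rescaled) rose, and Fkbp7 was not called (0.44, 0.17 rescaled). Fkbp2 was not called as deposited (-0.28) and fell after rescaling (-0.55). Fkbp11 was at 1.93, 6.95, 7.27 and 12.3 FPKM in the knockout and at 1.27, 0.787, 2.64 and 2.48 FPKM in WT, so that knockout 1 lay within the WT range and knockout 4 highest, as for Pdia4. Calr3, the testis relative of calreticulin, fell (-1.48, -1.71 rescaled).

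Of 14 other disulfide enzymes tested 8 rose and 2 fell, or 8 and 3 after rescaling. Over all genes tested 44.9% rose and 16.4% fell, or 26.9% and 27.0% after rescaling, so falls were not more frequent here. Qsox1, a sulfhydryl oxidase of the secretory pathway, was at 114.6, 105.7, 125.4 and 107.6 FPKM in the knockout and at 12.3, 16.8, 14.5 and 14.1 FPKM in WT. No other gene of the 7 lists moved as far (log2 change 2.89, SE 0.101, adjusted p = 2.24e-07; 2.62 rescaled). Gpx8, an ER peroxidase, changed by 1.52 (1.25 rescaled) and Txndc5, an isomerase, by 1.29 (1.02 rescaled). The membrane thioredoxins Tmx2 (-1.04, -1.31 rescaled) and Tmx1 (-0.46, -0.74 rescaled) fell.

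In the calnexin cycle and N-glycosylation list 10 of 15 genes rose and 0 fell, or 8 and 1 after rescaling. Stt3a, a catalytic subunit of the oligosaccharide transferase, led with a log2 change of 1.03 (0.76 rescaled), before its partners Dad1 (0.85, 0.57 rescaled) and Ostc (0.85, 0.58 rescaled). Of 22 other ERAD genes tested 19 rose and 1 fell, or 15 and 2 after rescaling. Ube2g2, a ubiquitin-conjugating enzyme of the pathway, changed by 1.15 (0.87 rescaled), Ubxn4 by 1.04 (0.77 rescaled), Edem3, a relative of Edem1, by 0.85 (0.60 rescaled), and the ligase Rnf5 by -0.35 (-0.62 rescaled). Herpud2, the closest relative of Herpud1, was at 21.6 ± 2.97 FPKM in the knockout and 12.2 ± 0.638 in WT (log2 change 0.76, 0.50 rescaled), opposite in sign to Herpud1; it was named after its value was seen. Of 21 translocon and signal peptidase genes 18 rose and 0 fell, or 11 and 2 after rescaling, led by the channel subunit Sec61a1 (1.06, 0.79 rescaled), Ssr4 (1.03, 0.76 rescaled) and the signal peptidase subunit Spcs3 (0.94, 0.67 rescaled).

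**Figure D5:**
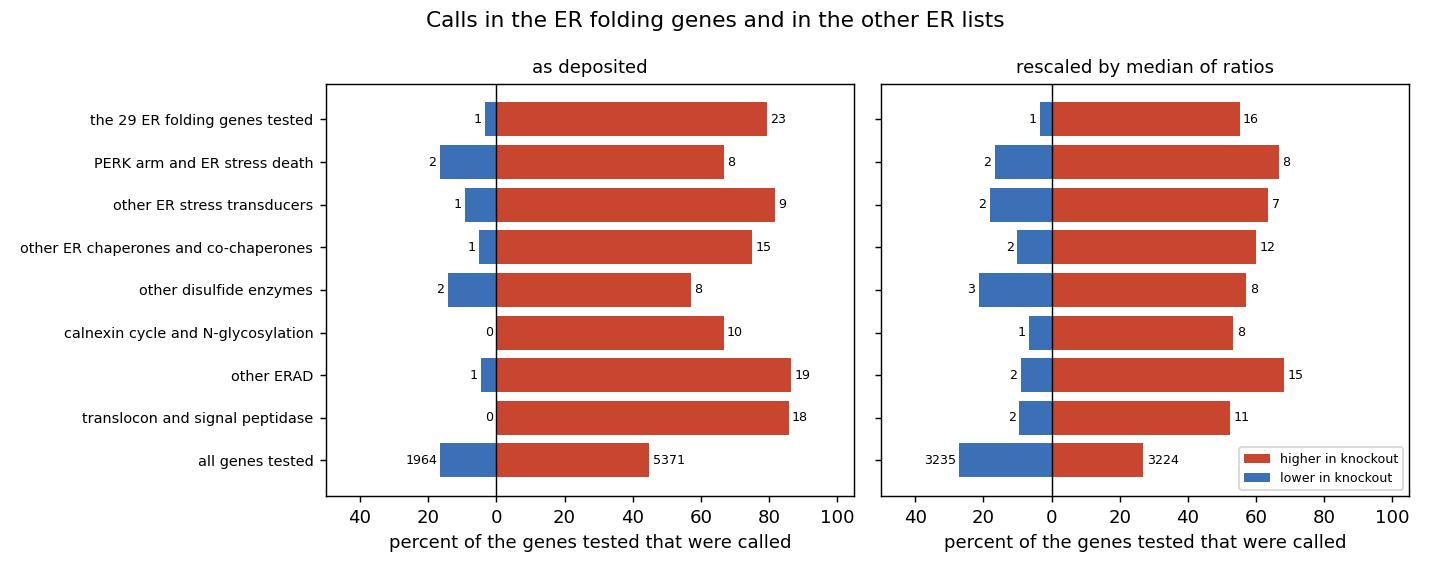
Percent of the genes tested in each list that were called higher (right of 0) or lower (left of 0) in the knockout, as deposited and after rescaling, with the number of genes at each bar. The ER genes described here are in the top row with 23 higher and 1 lower (16 and 1 rescaled), and all genes tested are in the bottom row with 5371 higher and 1964 lower (3224 and 3235 rescaled).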

How the data were processed

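Poly(A) RNA was made into stranded libraries, per the labels' protocols. Reads were aligned to mm10 with TopHat (application version 1.0.0) and quantified with Cufflinks tools, per the submitters' processing notes. The sources used here do not give the annotation or whether counting used strand. The authors deposited FPKM for each gene in each library. Their other table has pooled FPKM per group, the log2 fold change, and its p-value and q-value, per the file headers. FPKM written as 0.001 were set back to 0, and 312 rows with a word in every library and 1 with a word in some library were left out. Depth per library is known only as a ratio.

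limma (version 3.58.1, R 4.3.3) was fitted with an intensity trend to log2(FPKM + 1) of the 11974 genes averaging 1 FPKM or more over the libraries. The test was two-sided, 4 libraries against 4, with Benjamini-Hochberg adjusted p-values called under 0.05. Log2 changes understate those of low genes because of the pseudocount. Column names were matched to the labels' descriptions. The genes and lists were chosen with earlier results of these data known. Values in each library were given, per role, for up to 3 called genes of largest absolute log2 change in each direction, and for Hspa5, Herpud1, Xbp1, Atf6 and Ern1. They were also given for Edem1 as an outlier and, chosen after their values were seen, for Calr, Pdia4 and Pdia6. Per other list, up to 3 called genes in each direction were named, and others were named after their values were seen. On simulated data for this comparison (11856 genes, no common shift), 39.1% of genes with a log2 change of 0.5 were recovered. Recovery was 94.4% at 1 and 98.6% at 2, and 4.52% of calls were false. The changes of 0.5, 1 and 2 were carried by 69, 54 and 71 genes there. In the deposited data, 5371 genes were called higher and 1964 lower. Adjusted p-values depend on the share of genes that change, so these percentages do not give the recovery in the deposited data, which was not tested. Alternatives were quantile normalization, rescaling by the median of ratios, a pseudocount of 0.1, no minimum or 5 FPKM, limma with no trend, robust variances or array weights, a block for the replicate number, and leaving out each library; rescaling without knockout 4 or WT 3 was added after the data were seen. Promoter windows are from RefSeq (GRCm38.p6), and overlaps between genes are from GENCODE. Protein sequences were not analysed here.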

Additional observations from a re-analysis of the deposited data

Results flagged for a closer look

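Of 58 groups of 4 libraries tested, 29 genes in each genotype, 2 held a library far from the others by Dixon's criterion at the 95% level, which chance passes in about 1 of 20 groups. Edem1 in WT 3 was at 7.28 FPKM, while the other WT libraries were at 3.48 to 4.08 FPKM. The gap was 0.843 of the range of the group. The same library had the T cell markers Cd8a at 8.96, Cd3g at 7.49 and Cd4 at 5.32 FPKM, and the part of this in the level of Edem1 was not tested. Creld2 in WT 1 was at 9.12 FPKM, above the other WT libraries at 8.13 to 8.19 FPKM, with a gap of 0.937 of the range. WT 1 was the highest WT library for 18 of the 29 genes.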

How the results depend on the processing

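Rescaling called 3224 of all genes higher and 3235 lower, and quantile normalization 3437 and 3067, against 5371 and 1964 as deposited; for the ER genes both gave 16 higher and 1 lower, against 23 and 1. With no expression minimum 18 were higher, with a minimum of 5 FPKM 22, and with the other settings 22 or 23. Leaving out 1 library gave 18 (without WT 2) to 25 (without knockout 1) higher. Rescaling without knockout 4 or without WT 3, added after the data were seen, gave 12 and 14 ER genes higher, 2 and 1 lower, and 3190 and 3202, or 2906 and 2973, of all genes higher and lower. Herpud1 was lower in every setting, and the other gene lower without knockout 4 was Hspa5 (-0.33, adjusted p = 0.0444; -0.28 without WT 3, adjusted p = 0.128). With those libraries left out after rescaling, Hsp90b1 was at -0.09 and -0.01, Canx at -0.16 and -0.17, the Sec31a log2 change was -0.08 and -0.03, and, without knockout 4, the Hyou1 log2 change was -0.10 and the Sec24d log2 change -0.07, none of them called. In the other settings signs turned for these ER genes without a call: Hspa5 (-0.26 rescaled, -0.09 under quantile normalization, and -0.05, -0.02 and -0.01 without knockout 4, WT 2 or WT 4, so -0.05 to 0.11 over the left-out libraries), Hsp90b1 (-0.01 rescaled) and Canx (-0.16 rescaled, -0.12 under quantile normalization), and for Sec31a of the translocon list (-0.02 rescaled, -0.01 under quantile normalization), which was called as deposited; the cause was not tested. Of the 114 genes tested in the other lists 10 turned sign on rescaling, Sec31a and 9 without a call as deposited. Whether the replicate numbers pair the samples was not settled. Deviations of same-numbered libraries correlated at 0.14, 0.0325, -0.0409 and -0.0138. Those of differently numbered libraries correlated at -0.119 to 0.162, and no test was made. With the replicate block 22 ER genes were higher and 1 lower, and 5089 and 1867 of all genes; Ern1 lost its call (adjusted p = 0.0797). Summing rows of 1 symbol was not run, since each of the 30 genes has 1 row.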
